A study of Mus musculus with 5 samples.

Results

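Prrx1, Prrx2, Twist1, Twist2, Snai1, Snai2, Zeb1, Zeb2, Dach1 and Tfap2b, 10 transcription factor genes of mesenchymal cells, were followed in mouse forelimb buds of E11.5. All probe sets whose platform annotation gave 1 of these symbols and no other were taken. The rule found 26 probe sets for the 10 genes, of 45037 probe sets and 18193 named genes in all. The study compared 2 arrays from double mutant embryos, of genotype Sost-/-; Sostdc1-/-, with 3 arrays from wild-type embryos. All were E11.5 embryos of the C57Bl/6 background strain, and the labels name no other treatment or allele. Sost and Sostdc1 encode secreted antagonists of Wnt signalling, and the series title links them to digit number and to Gli3. The samples are described as unpooled biological replicates.

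Limb bud mesenchyme is a loose tissue of migratory, dividing cells under an ectodermal sheet. The paired-related homeobox genes Prrx1 and Prrx2 are general marks of this mesenchyme and are needed for limb skeletal growth. Twist1 and Twist2 encode basic helix-loop-helix proteins that pair with E-proteins, and Twist1 is needed for limb bud outgrowth. The Snail and Zeb families encode zinc finger repressors that bind E-box sequences and silence epithelial genes such as Cdh1 in cells that leave an epithelium. Dach1 encodes a nuclear co-repressor of the Eya pathway, and Tfap2b a transcription factor of the AP-2 family whose mutation in humans affects the face and hands.

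Values are log2 intensities, so a difference of 1 is a change by a factor of 2, and each difference is double mutant minus wild type. A probe set is a group of short probes that report 1 stretch of a transcript, and its brightness also depends on the probes, so levels were not compared between probe sets. Array medians on the linear intensity scale were 44.4 and 42.1 in double mutants and 41.7, 40.7 and 39.4 in wild type, so both double mutants lay above all wild types. On 1 of its 2 probe sets each targeted gene was called lower in the double mutants (limma adjusted p = 0.0091 and 0.0233), with Sost at 4.16 and 4.43 against 6.19 to 6.75 and Sostdc1 at 6.28 and 7.35 against 8.94 to 9.42. The other probe sets differed by −0.73 ± 0.34 (SE) and 0.05 ± 0.09, and whether any of them lies in the deleted parts is not known here. The forelimb gene Tbx5 stood at 9.58 to 10.90 on its brighter probe set and at 6.54 to 9.21 on the other, where it differed by −1.89 (adjusted p = 0.064). The hindlimb gene Pitx1 stayed at 4.79 to 5.28 on both probe sets, below the overall probe set median of 5.41. Tbx4, also a hindlimb gene, stood at 7.37 to 7.53 on 1 probe set and on the other at 4.55 and 4.52 in double mutants against 5.98 to 6.56 (limma adjusted p = 0.0114). The poly-A spike-in Dap read 6.90 and 7.28 in double mutants and 3.23 to 3.36 in wild type, so genotype and the way the RNA was prepared cannot be told apart here. The 2 double mutant arrays had high levels of Xist and of the Y-linked gene Eif2s3y (11.75 and 12.37 for Xist, 8.36 in both for Eif2s3y), although the labels describe unpooled embryos. Wild type replicate 1 had 12.28 for Xist and 3.20 for Eif2s3y, and wild type replicates 2 and 3 had 5.73 and 5.70 for Xist and 8.49 and 8.42 for Eif2s3y, so the wild-type arrays differ in sex. With 2 arrays against 3, their number limits the precision.

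Of the 26 member probe sets, limma called 5 lower and 1 higher in the double mutants at a Benjamini-Hochberg adjusted p under 0.05. The same test called 18.2% of all probe sets, 9.52% lower and 8.70% higher, so that 6 calls among 26 stand near the background of the comparison. Among the 20 member probe sets above the median level, 5 were called lower and 0 higher. Of all such probe sets 27.6% were called, 16.4% lower and 11.3% higher. With 1 probe set per gene, the brightest, Snai1 and Twist2 fell, 0 of 10 rose and 8 were not called. Snai1 and Twist2 have only 1 probe set each, so no other probe set can be set beside their calls. Over all genes 14.7% were called, 8.14% lower and 6.56% higher. The median difference was −0.14 over the 26 probe sets and −0.21 over the brightest probe sets of the 10 genes, against −0.01 over all probe sets and −0.02 over all genes. The groups did not overlap in 16 of 26 member probe sets, 11 with both double mutants below and 5 with both above, where 45.2% of all probe sets did not overlap (23.0% below and 22.1% above). Leaving out any 1 array also lowers the power of the test, so a call can be lost although the difference holds. Calls over the whole array depended on single libraries: limma called 0 of the 26, and 0% of all probe sets, without double mutant replicate 1 and without wild type replicate 2, with 10 and 8 members at an unadjusted p under 0.05. It called 3 without double mutant replicate 2 and 3 without wild type replicate 1, where 8.5% and 6.53% of all probe sets were called, and 5 without wild type replicate 3, against 11.3%.

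**Figure D1:**
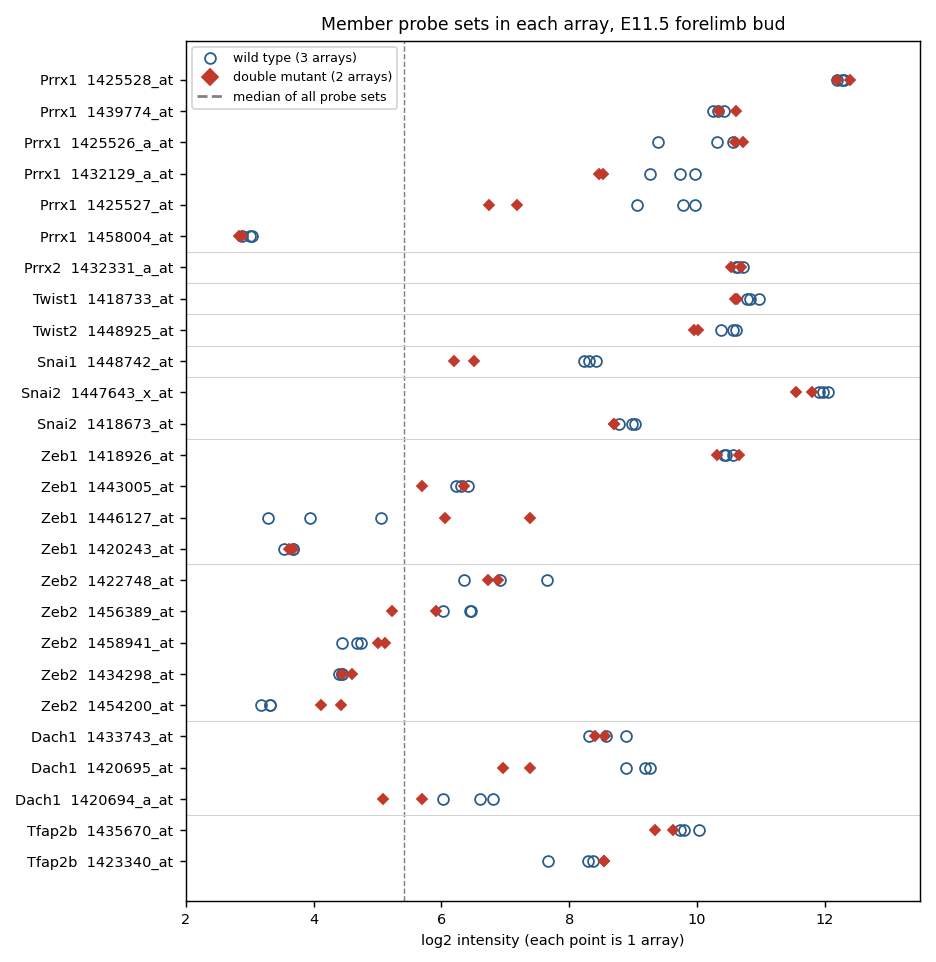
Log2 intensity (x axis) of the 26 member probe sets (y axis, grouped by gene) in 3 wild-type arrays (open circles) and 2 double mutant arrays (filled diamonds), 1 point per array. The dashed line is the median of all probe sets (5.41). Snai1, Dach1 1420695_at and Prrx1 1425527_at show both double mutants far to the left of the wild types, while Prrx2 and the brightest Prrx1 and Zeb1 probe sets overlap.

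Snai1 encodes the Snail repressor and was read by 1 probe set, 1448742_at. It stood at 8.23, 8.31 and 8.42 in the 3 wild-type arrays and at 6.19 and 6.51 in the 2 double mutants. The groups were far apart, and the gap between them was several times the spread within either. The difference was −1.97 ± 0.12 (SE, limma adjusted p = 0.0065), which leaves 25.6% of the wild-type intensity. It lay between −2.13 and −1.81 with any 1 array left out, and leaving out double mutant replicate 1 or wild type replicate 2 took it past the threshold (adjusted p = 0.0511 and 0.0596).

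Snai2 encodes Slug, the close relative of Snail, and its probe sets differed far less. On 1447643_x_at, whose probes can also match other transcripts as its suffix marks, it stood at 11.91, 12.05 and 11.98 in the wild types and at 11.80 and 11.55 in double mutants. On 1418673_at it stood at 8.78, 8.99 and 9.03 in the wild types and at 8.70 in both double mutants. Both probe sets had the double mutants just below all wild types, with differences of −0.31 ± 0.10 (SE, adjusted p = 0.113) and −0.24 ± 0.09 (adjusted p = 0.171), and neither was called.

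Twist2, also known as Dermo1, stood at 10.38, 10.56 and 10.61 in the wild types and at 9.96 and 10.01 in double mutants on its only probe set, 1448925_at. Both double mutants lay below all wild types, and the difference of −0.53 ± 0.09 (SE, limma adjusted p = 0.0258) amounts to 69.1% of the wild-type intensity. The call was lost without any 1 array other than wild type replicate 1, with adjusted p of 0.119 and 0.0998 without double mutant replicates 1 and 2 and 0.117 and 0.0647 without wild type replicates 2 and 3. Its paralog Twist1 on 1418733_at stood at 10.79, 10.83 and 10.98 in the wild types and at 10.59 and 10.63 in double mutants. The double mutants were again below, by less: the Twist1 difference was −0.26 ± 0.08 (SE, adjusted p = 0.101) and was not called. The difference between the paralogs was not tested.

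The 4 genes with a probe set called lower are shown by their promoters, taken from RefSeq on GRCm38.p6, from 250 bases before to 50 after the start site, 5′ to 3′ on the gene's strand. Capitals mark E-boxes, the CANNTG sequence that Twist and, in the form CAGGTG or its complement CACCTG, Snail and Zeb proteins bind. Both strands were searched, and CAGGTG is a subset of CANNTG. The window of Snai1 is chr2:167537945-167538244, of Twist2 chr1:91801211-91801510, of Prrx1 chr1:163313601-163313900 (minus strand) and of Dach1 chr14:98169716-98170015 (minus strand).
Snai1: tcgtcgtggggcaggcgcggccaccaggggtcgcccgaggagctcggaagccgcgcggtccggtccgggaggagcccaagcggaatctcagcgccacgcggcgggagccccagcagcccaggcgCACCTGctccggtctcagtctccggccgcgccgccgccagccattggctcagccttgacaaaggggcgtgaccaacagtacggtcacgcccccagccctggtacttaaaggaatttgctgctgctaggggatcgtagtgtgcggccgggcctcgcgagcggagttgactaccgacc
Twist2: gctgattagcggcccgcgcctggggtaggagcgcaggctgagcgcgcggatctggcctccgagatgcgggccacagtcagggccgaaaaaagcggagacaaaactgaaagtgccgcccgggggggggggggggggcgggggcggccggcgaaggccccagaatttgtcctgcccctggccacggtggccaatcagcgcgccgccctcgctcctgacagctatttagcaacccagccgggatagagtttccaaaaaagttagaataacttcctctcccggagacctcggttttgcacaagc
Prrx1: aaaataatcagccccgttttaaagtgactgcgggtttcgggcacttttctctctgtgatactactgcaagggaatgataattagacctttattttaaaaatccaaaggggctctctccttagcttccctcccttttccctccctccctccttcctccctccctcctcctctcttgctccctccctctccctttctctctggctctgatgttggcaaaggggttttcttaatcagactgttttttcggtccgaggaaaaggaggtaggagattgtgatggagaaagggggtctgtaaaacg
Dach1: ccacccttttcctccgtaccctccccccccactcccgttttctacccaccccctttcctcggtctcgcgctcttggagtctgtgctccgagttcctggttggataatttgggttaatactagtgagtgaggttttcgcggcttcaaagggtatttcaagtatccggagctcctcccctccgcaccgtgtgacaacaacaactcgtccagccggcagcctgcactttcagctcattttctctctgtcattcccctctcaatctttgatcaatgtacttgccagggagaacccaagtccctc
Snai1 held 1 match, CACCTG, whose first base lies 126 bases before the start site (position -126). The windows of Twist2, Prrx1 and Dach1 held 0 matches to CANNTG. RefSeq windows were used for 8 members, 11 windows in all. Of these, 1 held CAGGTG or CACCTG, where 20.2% of 32851 promoter windows of the same length did. Beside Snai1, Tfap2b held 1 CANNTG match, CATTTG at position -58, and 72.3% of all windows held at least 1. A match is a string of letters in this window and says nothing of binding.

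Prrx1, the general limb mesenchyme homeobox gene, had 6 probe sets that did not move together. On the brightest, 1425528_at, it stood at 12.19, 12.27 and 12.31 in the wild types and at 12.39 and 12.19 in double mutants. These values overlap, with a difference of 0.03 ± 0.08 (SE, adjusted p = 0.805). On 1439774_at it stood at 10.25, 10.33 and 10.42 in the wild types and at 10.35 and 10.62 in double mutants, which also overlap (difference 0.15 ± 0.11, adjusted p = 0.394).

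On 1425527_at Prrx1 stood at 9.78, 9.97 and 9.06 in the wild types and at 6.74 and 7.18 in double mutants. That is the widest gap downward among the 26 member probe sets, with a difference of −2.64 ± 0.33 (SE, limma adjusted p = 0.0152), or 16% of the wild-type intensity. On 1432129_a_at it stood at 9.74, 9.97 and 9.27 in the wild types and at 8.46 and 8.53 in the mutants, a difference of −1.16 ± 0.23 (SE, limma adjusted p = 0.038). Both calls held without wild type replicate 3 and were lost without any other single array, with adjusted p from 0.069 to 0.0944 for the first and from 0.112 to 0.17 for the second. On 1425526_a_at the double mutants, at 10.60 and 10.72, lay above wild types at 10.56, 10.31 and 9.39, and wild type replicate 3 set most of the spread (difference 0.57 ± 0.39, adjusted p = 0.378). The dim 1458004_at read 2.83 to 3.03 in all 5 arrays. The 3 probe sets 1425526_a_at, 1425527_at and 1425528_at were drawn from the same source sequence record in the platform annotation, yet differed by 0.57, −2.64 and 0.03. Prrx2, read by 1432331_a_at, stood at 10.61, 10.64 and 10.72 in the wild types and at 10.53 and 10.69 in double mutants, values that overlap (difference −0.05 ± 0.07, adjusted p = 0.698).

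**Figure D2:**
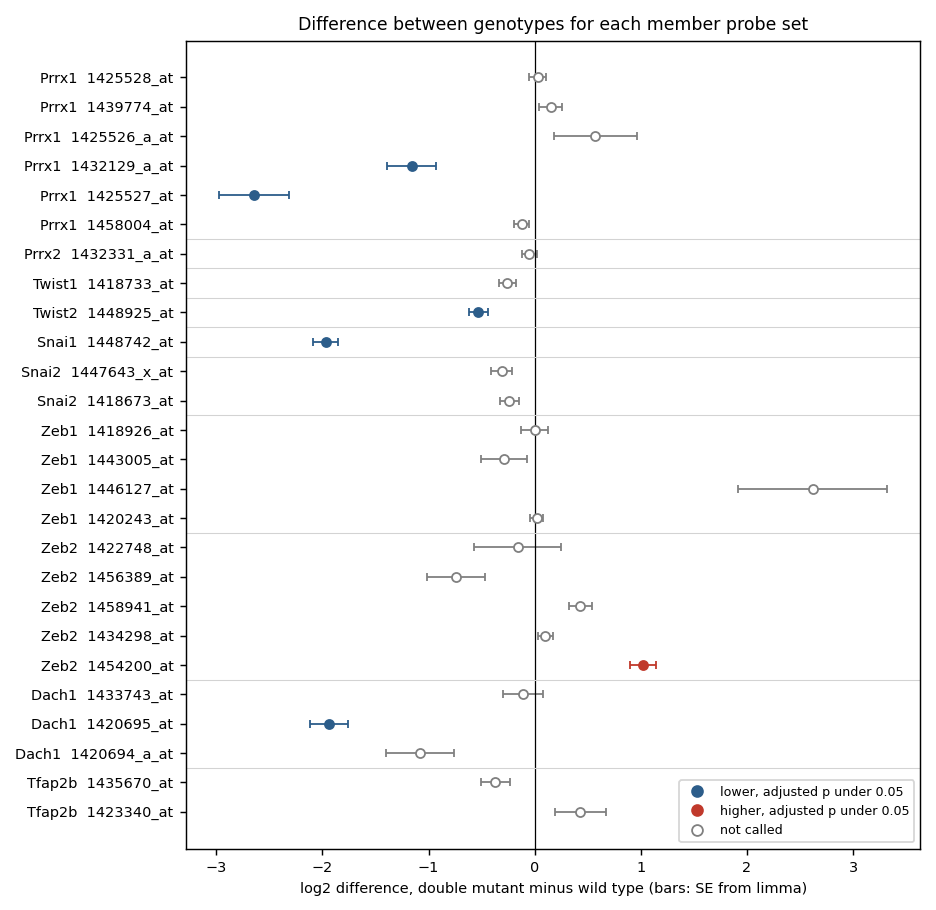
Log2 difference, double mutant minus wild type, of each member probe set (points) with limma's standard error (bars), 2 against 3 arrays. Filled points passed an adjusted p under 0.05: Prrx1 1425527_at (−2.64), Snai1 (−1.97), Dach1 1420695_at (−1.94), Prrx1 1432129_a_at (−1.16) and Twist2 (−0.53) lower, and the dim Zeb2 1454200_at (1.02) higher.

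Zeb1 encodes the zinc finger repressor also called deltaEF1, and on its brightest probe set, 1418926_at, it showed no difference in mean. It stood at 10.43, 10.46 and 10.57 in the wild types and at 10.66 and 10.31 in the mutants, a difference of 0.00 ± 0.13 (SE, adjusted p = 0.993). The double mutants lay on either side of the wild types. On 1443005_at Zeb1 stood at 6.30, 6.23 and 6.42 in the wild types and at 6.36 and 5.70 in the mutants (difference −0.29 ± 0.22, adjusted p = 0.423).

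On 1446127_at Zeb1 stood at 5.06, 3.94 and 3.29 in the wild types and at 7.38 and 6.05 in double mutants, the widest gap upward among the members. The groups did not overlap, but both were widely spread, and the difference of 2.62 ± 0.70 (SE, adjusted p = 0.0753) was not called. Its mean level of 5.14 is under the overall median. The dim 1420243_at read 3.54 to 3.67 in all 5 arrays.

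Zeb2, the paralog of Zeb1 also called SIP1, had 5 probe sets with a mean level from 3.67 to 6.90. On its brightest, 1422748_at, it stood at 7.65, 6.91 and 6.35 in the wild types and at 6.88 and 6.73 in double mutants, inside the wild-type range (difference −0.16 ± 0.41, adjusted p = 0.817). On 1456389_at it stood at 6.02, 6.47 and 6.44 in the wild types and at 5.91 and 5.23 in the mutants (difference −0.74 ± 0.27, adjusted p = 0.148).

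The remaining 3 Zeb2 probe sets lay below the median level. On 1454200_at Zeb2 stood at 3.31, 3.31 and 3.17 in the wild types and at 4.43 and 4.12 in the mutants, a rise of 1.02 ± 0.12 (SE, limma adjusted p = 0.0127). The wild-type values are close to 3.05 to 3.14, the level of the absent-transcript control Trpn, so the size of this rise is uncertain, and on the log2(intensity + 16) scale it was 0.47. The call did not hold without double mutant replicate 1, wild type replicate 1 or wild type replicate 2, where adjusted p was 0.0547, 0.0568 and 0.078. Of the others, 1458941_at differed by 0.43 ± 0.11 (adjusted p = 0.0633) and 1434298_at by 0.10 ± 0.07 (adjusted p = 0.389).

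Dach1, like Prrx1, was split by probe set. On its brightest, 1433743_at, it stood at 8.31, 8.57 and 8.89 in the wild types and at 8.41 and 8.56 in double mutants, which overlap (difference −0.11 ± 0.19, adjusted p = 0.739). On 1420695_at it stood at 8.89, 9.26 and 9.19 in the wild types and at 6.96 and 7.38 in the mutants, a fall to 26% of the wild-type intensity (difference −1.94 ± 0.18, limma adjusted p = 0.0094). Leaving out double mutant replicate 1 or wild type replicate 2 ended that call (adjusted p = 0.0585 and 0.0681). On 1420694_a_at, drawn from the same source record as 1420695_at, Dach1 stood at 6.61, 6.80 and 6.02 in the wild types and at 5.08 and 5.70 in double mutants. The groups were apart there too, but the difference of −1.08 ± 0.32 (SE, adjusted p = 0.0962) was not called.

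Tfap2b had 2 probe sets with differences of opposite sign. On 1435670_at it stood at 9.74, 9.80 and 10.04 in the wild types and at 9.35 and 9.62 in the mutants, a difference of −0.37 ± 0.14 (SE, adjusted p = 0.153). On 1423340_at it stood at 8.37, 8.30 and 7.67 in the wild types and at 8.55 in both double mutants, a difference of 0.43 ± 0.24 (SE, adjusted p = 0.309). In neither did the groups overlap, and neither was called.

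Probe sets of the same gene also disagreed across the array. Among 177 genes with 5 probe sets above the median level, the highest and lowest differences were a median of 1.96 apart, against 3.21 for Prrx1. Among 1330 genes with 3 such probe sets the median was 0.92, against 1.84 for Dach1. Both called and uncalled probe sets were found in 77.4% and 59.1% of these genes. The 3′ minus 5′ difference of the control probe sets of Gapdh, which grows when the 5′ end of a transcript is read less well, was 0.27 and 0.16 in double mutants and −0.14, −0.10 and −0.06 in wild type. That of Actb was 0.65 and 0.56 in double mutants and 0.20, 0.24 and 0.68 in wild type, so wild type replicate 3 resembled the double mutants on Actb alone. Wild type replicate 3 was also the lowest wild type on Prrx1 1425526_a_at, 1425527_at and 1432129_a_at, on Dach1 1420694_a_at and on Tfap2b 1423340_at. Over all 26 member probe sets it was the lowest wild type in 9 and the highest in 13. Wild type replicate 1, with the smallest Gapdh and Actb differences, was the lowest in 15 and the highest in 4. With the Gapdh difference as a covariate, limma called 0 of the 26, with 5 at an unadjusted p under 0.05, and 0 of all 45037. The differences were then −0.82 ± 0.98 (SE) for Prrx1 1425527_at, −0.42 ± 0.87 for Prrx1 1432129_a_at, −1.56 ± 0.75 for Dach1 1420695_at, −1.63 ± 0.50 for Snai1 and −0.77 ± 0.35 for Twist2. The Gapdh difference separates the genotypes, so the 2 cannot be told apart with these arrays. Where each probe set lies along its transcript was not used here.

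**Figure D3:**
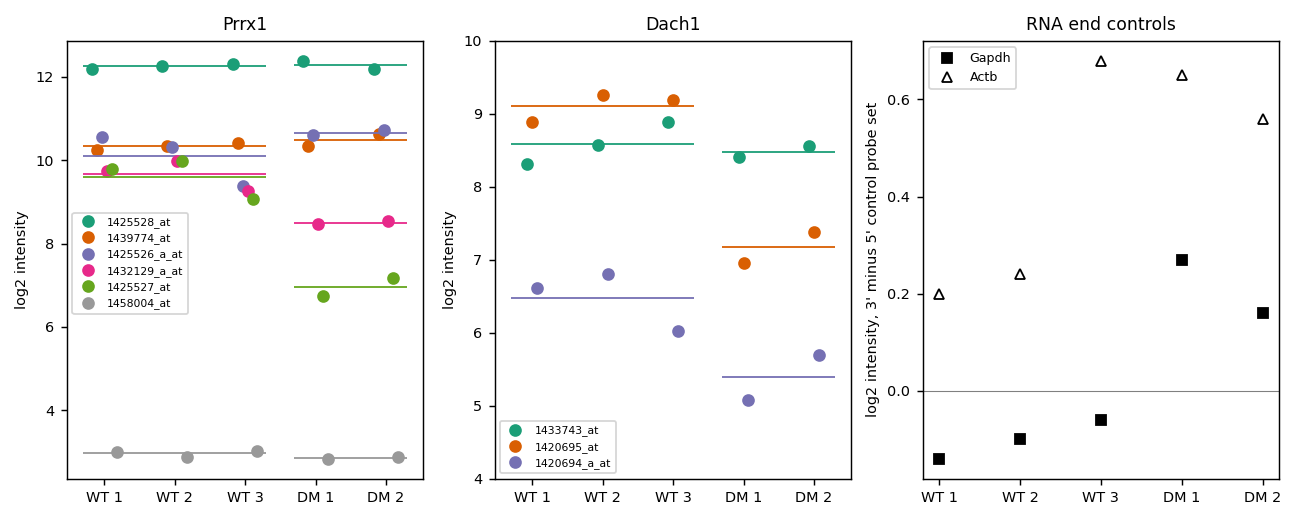
Log2 intensity of each Prrx1 probe set (left) and Dach1 probe set (middle) in the 3 wild-type (WT) and 2 double mutant (DM) arrays, with group means as lines, and the 3′ minus 5′ log2 difference of the Gapdh and Actb controls in the same arrays (right). Prrx1 1425527_at and Dach1 1420695_at drop in both double mutants while 1425528_at and 1433743_at stay level, and the Gapdh control is above 0 in the double mutants and below 0 in the wild types.

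Genes that act with the members, are known to be regulated by such factors or belong to the same tissue were taken from 7 lists. On the brightest probe set of each gene, 11 of 77 rose and 3 fell, with a median difference of 0.00, where 6.56% of all genes rose and 8.14% fell (14.7% called). The balance depended on the probe set: of the 97 dimmer probe sets of these genes 8 were called higher and 22 lower. Over all probe sets, bright and dim, 8.70% were called higher and 9.52% lower, and the share among dimmer probe sets alone was not counted. With the mean of all probe sets per gene 10 genes were called higher and 13 lower, where 21.5% of all genes were called. Making array medians equal called 21.4% of all probe sets. With array medians made equal the split was 5 higher and 5 lower, and 0 of 77 were called without double mutant replicate 1 or without wild type replicate 2 (34 and 18 at an unadjusted p under 0.05). Leaving out double mutant replicate 2 or wild type replicates 1 or 3 left 7, 5 and 8 calls.

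In a list of 9 genes, made of partners of Twist proteins and of the Id genes, 2 rose and 0 fell on the brightest probe set. Of 18 other probe sets 3 were called higher (1 of Id2 and 2 of Tcf12) and 4 lower (2 of Hand2 and 1 each of Tcf12 and Tcf3). Tcf3, which encodes the E-protein E2A, stood at 11.10 and 11.22 in the mutant arrays and at 10.60, 10.73 and 10.71 in wild type (difference 0.48 ± 0.07, SE, limma adjusted p = 0.0205), but its second probe set was called lower (−0.48, adjusted p = 0.0281). Id1, which encodes an inhibitor that ties up E-proteins, stood at 12.29 and 12.22 in the mutant arrays and at 11.83, 11.91 and 11.77 in wild type (difference 0.42 ± 0.07, limma adjusted p = 0.0245). Of 8 co-repressors used by Snail or Zeb proteins, Ctbp1 (0.44 ± 0.09, limma adjusted p = 0.0382) and the deacetylase gene Hdac2 (0.39 ± 0.06, limma adjusted p = 0.0237) rose and 0 fell, while both dimmer probe sets called, of 8, were of Sin3a and lower (−0.62 and −1.35).

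Of 19 epithelial genes 6 rose and 0 fell on the brightest probe set, with a median difference of 0.45. Snail and Zeb proteins are known to repress some of them, such as Cdh1, in other settings, and 16 of the 19 lay above the median level. Of the 13 uncalled genes, Crb3 (−0.44 ± 0.17, SE), Krt5 (−0.38 ± 0.14), Cldn6 (−0.28) and Ovol1 (−0.09) lay lower and the rest higher. Both double mutants were below all wild types for Crb3 and Krt5. Of the 21 dimmer probe sets of the 19 genes 1 was called higher (Trp63, 0.90) and 4 lower (Esrp2, −1.02, Crb3, −0.58, Dsp, −1.69, and Trp63, −1.90). The direction was thus not shared by all genes or by all probe sets. Epcam, an epithelial adhesion molecule, stood at 10.34 and 10.41 in the mutant arrays and at 9.60, 9.66 and 9.60 in wild type (difference 0.76 ± 0.05, SE, limma adjusted p = 0.0067). The groups were well apart relative to their spread. The epithelial splicing factor genes Esrp1 and Esrp2 rose by 0.89 ± 0.10 and 1.01 ± 0.13 (limma adjusted p = 0.0117 and 0.0157). The tight junction gene Cldn7 rose by 1.07 ± 0.14 (limma adjusted p = 0.0167). Cdh1, named after its values were seen because it is the best known Snail target, stood at 8.85 and 9.50 in the mutant arrays and at 8.05, 8.15 and 8.19 in wild type (difference 1.05 ± 0.21, limma adjusted p = 0.0399). The summed intensity of the 19 genes was 8589 and 8711 in double mutants and 5655 to 6592 in wild type. Each array holds whole limb bud RNA, so more cells of a type and more RNA per cell cannot be told apart.

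Of 14 genes of mesenchymal cells, 0 rose and 2 fell, with a median difference of −0.23, and of their 19 dimmer probe sets 3 were called higher and 5 lower. Vim, the intermediate filament gene of mesenchyme, stood at 12.05 and 12.09 in the mutant arrays and at 12.69, 12.83 and 12.75 in wild type (difference −0.69 ± 0.06, SE, limma adjusted p = 0.0088), with another probe set also lower (−0.51). Itga5, a fibronectin receptor subunit gene, stood at 5.94 and 5.82 against 7.27, 7.58 and 7.72 (difference −1.65 ± 0.15, limma adjusted p = 0.0093), while of its dim probe sets 1 was called lower (−1.23) and 2 higher (0.81 and 0.50). Cdh2, which encodes the mesenchymal cadherin, was not called (0.26 ± 0.11, adjusted p = 0.213). The summed intensity of this list was 42180 and 35007 in double mutants and 43152 to 45595 in wild type.

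Among 8 measured genes of the Dach and Eya network, Dach2 rose (0.50 ± 0.07, SE, limma adjusted p = 0.0181), from 6.53, 6.53 and 6.60 in the wild types to 6.97 and 7.13 in the mutants, and 0 fell, while 3 dimmer probe sets of Eya1 and Eya3 were called lower. In the AP-2 list limma called 0 of 7, and 1 of them, Cited2, had an unadjusted p under 0.05, with a dimmer probe set called lower (−1.14, limma adjusted p = 0.0097) and 1 of Kctd1 called higher (0.22). Tfap2a stood at 8.82 ± 0.21 (SD, n = 2) and 8.59 ± 0.15 (SD, n = 3). Of 12 limb mesenchyme regulators, Alx4 fell at a dim level (−0.45 ± 0.10, SE, limma adjusted p = 0.0467) and 11 were not called, while dimmer probe sets of Fgfr1 (−2.31), Fgfr2 (−2.52) and Lhx9 (−0.82) were called lower.

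**Figure D4:**
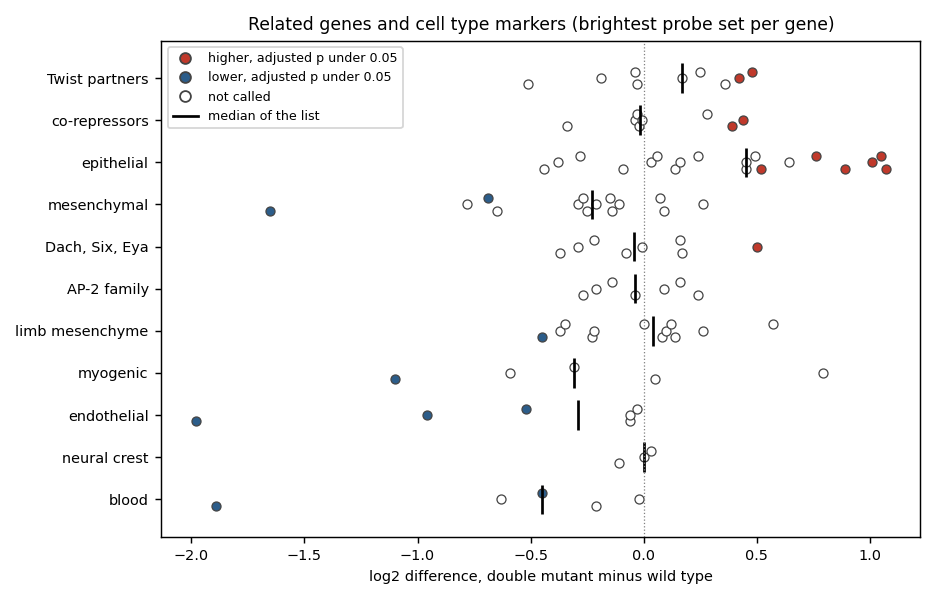
Log2 difference, double mutant minus wild type, of each gene (points, brightest probe set) in the 7 related lists and 4 lists of cell type markers, with the list median as a black bar. Filled points passed an adjusted p under 0.05. On these probe sets epithelial genes lie mostly to the right (median 0.45), and the filled endothelial, blood and myogenic points lie to the left.

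Markers of other cells in the bud were also called. Of 6 endothelial genes 3 fell, Pecam1 (−1.98), Tie1 (−0.96) and Emcn (−0.52), while Cdh5 (−0.06), Kdr (−0.03) and Tek (−0.06) were not called. The summed intensity of the 6 was 1168 and 1114 in double mutants against 1577 to 1680 in wild type. Of 5 measured blood genes 2 fell, with sums of 24556 and 27972 against 29886 to 32861. These were Alas2 (−1.89) and Hba-x (−0.45), while Hbb-bh1 (−0.02), Ptprc (−0.21) and Csf1r (−0.63) were not called. Of 5 muscle progenitor genes 1 fell, Myod1 (−1.10), with sums over the list of 829 and 782 against 1050 to 1205. Pax7 (−0.59) and Lbx1 (−0.31) lay lower and Pax3 (0.79) and Myf5 (0.05) higher, none of them called. In the neural crest list 0 of 3 measured genes were called, 0 at an unadjusted p under 0.05, with sums of 845 and 623 against 646 to 792 and with Foxd3 below the median level. The summed epithelial genes, on their brightest probe sets, were thus higher, and the endothelial, blood and myogenic sums lower, in the same 2 arrays in which Snai1 and Twist2 were lower. A sum weighs each gene by the brightness of its probe set, so a few bright genes can set it. In double mutant replicate 1 Hba-x and Hbb-bh1 gave 12154 and 11776 of the blood sum of 24556. Myod1 alone went from 527, 576 and 667 in wild type to 308 and 242 in double mutants. The genes of a list did not all move with its sum. The part of these shifts in the members' differences was not tested.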

How the data were processed

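The authors deposited 1 linear intensity per probe set and array, for 45101 probe sets. RMA and limma are named in the submitters' processing notes, without version, role or order; background and normalization settings are not given in the sources used here. Per the labels' protocols, total RNA was labelled with biotin through 2 rounds of amplification, which favours the 3′ end of transcripts. Intensities were used as deposited, and log2 was taken. After 64 control probe sets were left out, 45037 were fitted with limma 3.58.1 in R 4.3.3 (1 mean per genotype, empirical Bayes, two-sided p, Benjamini-Hochberg adjustment over all 45037, 3 residual and 1.29 prior degrees of freedom). The fit was tested on simulated data. Named genes were every member probe set and the called genes of each related list, at most the 4 with the smallest p, beside the targeted genes, the tissue checks and the controls. Other genes were named after their values were seen. These were Cdh1, Cdh2, Crb3, Krt5, Cldn6, Ovol1, Tfap2a, Cited2, Foxd3, Xist, Eif2s3y, the endothelial, blood and muscle progenitor genes, and genes named for a dimmer probe set. The members and the gene lists were chosen with earlier results of these data known. Counts over genes used the brightest probe set of each gene by its mean over all arrays. Alternatives changed the scaling, the filter on dim probe sets, the variance model, the log scale and the arrays used, and added a replicate block or an RNA end covariate.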

Additional observations from a re-analysis of the deposited data

How the results depend on the processing

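Of 306 refits of single member differences under 12 alternatives, 256 kept direction and call, 27 lost the call, 3 gained it and 20 changed sign. All 27 losses fell on the 6 probe sets called as reported, and most of the 256 were uncalled differences that stayed uncalled. The 256 are thus no measure of how stable the calls were. Each member count is of calls at an adjusted p under 0.05 (as reported, 6 probe sets, 2 genes and 14 related genes). With the Gapdh covariate the counts were 0, 0 and 0 (5, 3 and 20 at an unadjusted p under 0.05). With 1 array left out they ran from 0 to 5, 0 to 2 and 0 to 8. The titles give both groups the same replicate numbers, but these were not shown to pair arrays. Deviations of same-numbered arrays from their group means had r of 0.089 and 0.12 across probe sets. With only 2 double mutant arrays their deviations mirror each other, so these values cannot settle whether arrays are paired. The replicate block gave 5 probe sets, 1 gene (Snai1) and 0 related genes (21 at an unadjusted p under 0.05), with 5.22% of all probe sets called (18.2% as reported). No double mutant has the number of wild type replicate 3, so with the block that array does not enter the difference. The block differences equal those without it (−2.91 in both for Prrx1 1425527_at), with fewer residual degrees of freedom. The mean of all probe sets per gene gave 23 related genes, 10 higher and 13 lower, where 21.5% of all genes were called.

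All changes of sign were in differences that were not called. With the Gapdh covariate the difference was −0.50 for Prrx1 1425528_at, 0.11 for Prrx2, 1.33 for Zeb2 1422748_at, −0.18 for Zeb2 1458941_at and 0.89 for Dach1 1420694_a_at. With equal array medians it was −0.06 for Prrx1 1425528_at and −0.07 for Zeb1 1420243_at. The replicate block gave 0.04 for Zeb1 1418926_at, −0.02 for Zeb1 1420243_at and 0.04 for Dach1 1433743_at, and quantile normalization 0.01 for Zeb1 1418926_at. With 1 array left out the range was −0.06 to 0.13 for Prrx1 1425528_at, −0.13 to 0.03 for Prrx2, −0.18 to 0.17 for Zeb1 1418926_at, −0.62 to 0.04 for Zeb1 1443005_at, −0.02 to 0.04 for Zeb1 1420243_at, −0.47 to 0.18 for Zeb2 1422748_at and −0.24 to 0.04 for Dach1 1433743_at. Calls were gained for Zeb1 1446127_at with equal array medians (2.53, adjusted p = 0.0254) and the replicate block (2.22, adjusted p = 0.0429), and for Dach1 1420694_a_at with equal array medians (−1.18, adjusted p = 0.033). The cause was not tested. Dim probe sets of Zeb1, Zeb2 and Prrx1 limit what can be said of them.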
